A study of Arabidopsis thaliana with 4 samples.

Results

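The 10 root hair genes described here run from the choice of cell fate to the growth of the hair. GL2 (AT1G79840) and CPC (AT2G46410) are fate regulators, RHD6 (AT1G66470) and RSL4 (AT1G27740) are the hair bHLH factors, and RHD2 (AT5G51060), EXPA7 (AT1G12560), EXPA18 (AT1G62980), COBL9 (AT5G49270), PRP3 (AT3G62680) and LRX1 (AT1G12040) are growth genes. They were taken as the probe sets that the deposited annotation assigns to 1 of these loci alone, which gave 1 probe set for each gene, or 10 of 21226 measured genes.

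Root hairs are tubular outgrowths of single epidermal cells of the root. In Arabidopsis thaliana the decision to form a hair is taken by a small network of transcription factors: in cells that will stay hairless a complex of the MYB factor WER, the bHLH factors GL3 and EGL3 and the WD40 protein TTG1 switches on GL2, which keeps the hair programme off, while the small MYB protein CPC moves into neighbouring cells and blocks that complex there. Where GL2 is off, the bHLH factor RHD6 starts the hair and acts through the bHLH factor RSL4 on the genes that build the growing tip.

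Transcript levels were measured in whole 5-day-old seedlings of Columbia 0 on Affymetrix arrays. Seedlings were grown either with ASP (2 arrays) or without ASP (2 arrays) on half-strength Murashige and Skoog agar that held 0.1% sucrose, at 22 to 24 °C in days of 16 h light and nights of 8 h. ASP is a synthetic piperazine that bears a bromophenoxyacetyl and a fluorophenylsulfonyl group. No source used here states its dose. The labels call the arrays of a group biological replicates, and the genotype was the same in both groups. All values are the authors' normalized log2 signal, in which a difference of 1 is a doubling. A probe set is called present, marginal or absent according to whether its signal stood above background, and signals of different genes cannot be set against each other.

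Of 22746 probe sets, 15075 and 15706 were called present on the arrays with ASP, and 15415 and 15282 on those without ASP. Shoot and root were both in the samples: the mesophyll genes RCA and CA1, the endodermis genes SCR and CASP1 and the root glucosidase gene PYK10 were present on all 4 arrays. Because whole seedlings were used, fewer hair cells and less RNA per hair cell cannot be told apart. GL2, CPC, EGL3 and TTG1 also act in leaf hairs of the shoot, which was not separated from the root.

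No root hair gene changed past the test. At an adjusted p under 0.05, limma called 0 of the 10 genes, against 0% of all probe sets (0 of 22746), and 0 of the 10 had an unadjusted p under 0.05, where 7.42% of all probe sets did. With a variance prior that follows brightness (the intensity trend), limma again called 0 of the 10, against 0.317% of all probe sets, and 0 of the 10 had an unadjusted p under 0.05, against 9.47%. The arrays with ASP lay wholly above or wholly below those without ASP for 2 of the 10 genes, RSL4 and EXPA18, and for 39.4% of all probe sets. None of the 10 was among the 148 probe sets (0.651%) in the authors' deposited table of differing probe sets. That table was made with an unadjusted p under 0.05 and a ratio of at least 2, and includes columns not used here.

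**Figure D1:**
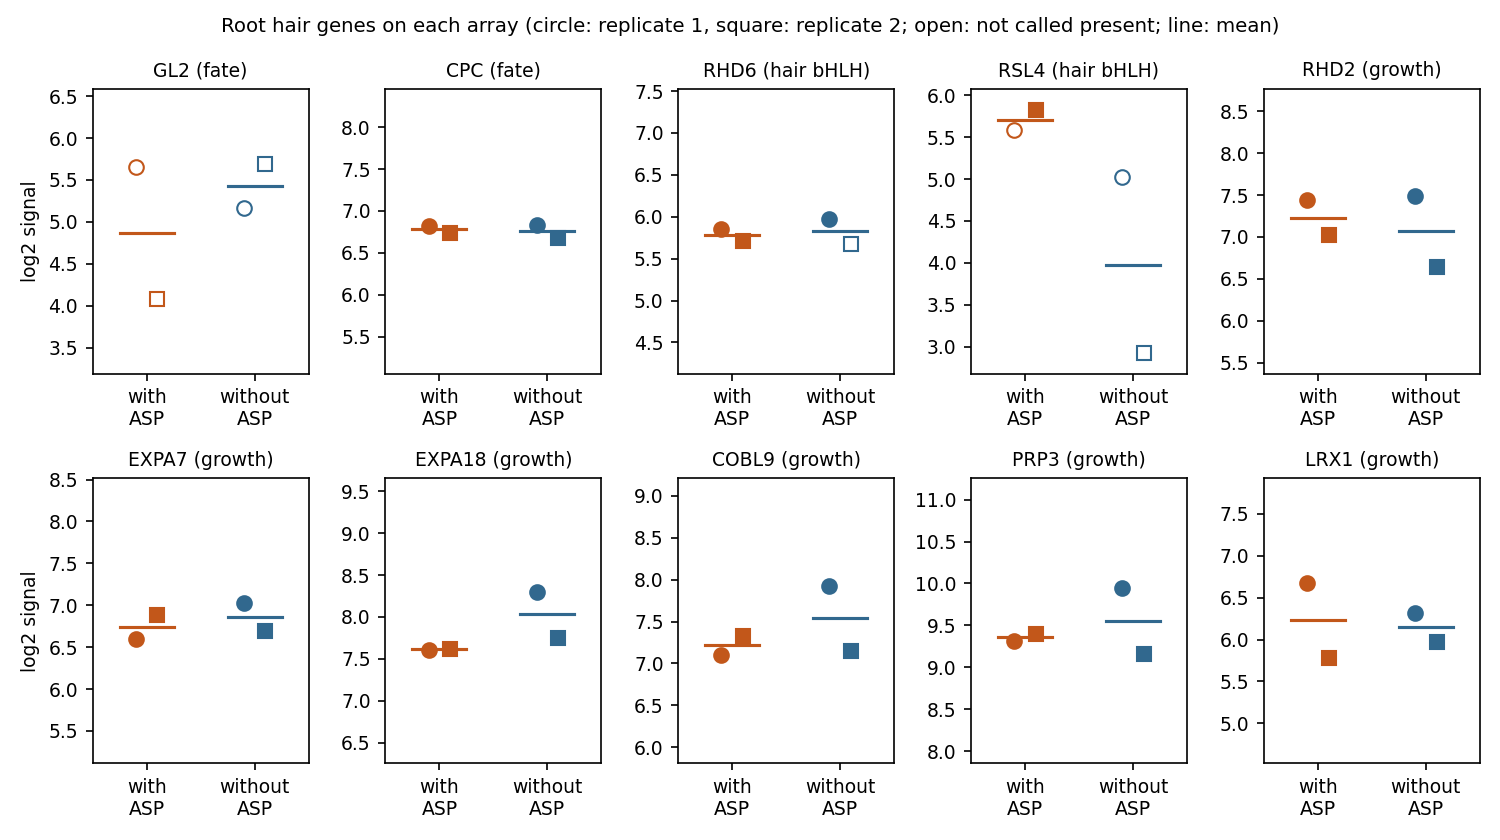
Log2 signal of the 10 root hair genes on each array, with ASP on the left and without ASP on the right of each panel. Circles are replicate 1, squares replicate 2, open symbols were not called present and lines are group means, and every panel spans the same range of log2 signal. The groups overlap in 8 of the 10 panels, and replicate 1 without ASP lies above replicate 2 in all 6 growth genes.

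Of the fate regulators, CPC was the one with a measurable level. CPC had log2 signals of 6.82 and 6.74 with ASP, against 6.83 and 6.68 without ASP, and was called present on all 4 arrays. The values with ASP lay between those without ASP. The log2 fold change was 0.02 with a standard error of 0.15 (95% interval -0.42 to 0.47, limma adjusted p 0.979), so the interval covers levels from 0.746 to 1.39 times those without ASP.

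GL2, a homeodomain factor that marks hairless epidermal cells, had signals of 5.65 and 4.08 with ASP, against 5.16 and 5.69 without ASP. It was called absent on all 4 arrays, so no fold is given and its level in either group is not known from these arrays. A comparison of fate regulators with growth genes therefore rests on CPC alone.

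RHD6, which starts hair outgrowth, had signals of 5.86 and 5.71 with ASP, against 5.97 and 5.68 without ASP. It was present on 3 arrays and marginal on replicate 2 without ASP. The groups overlapped, with a log2 fold change of -0.04 (95% interval -0.59 to 0.51, limma adjusted p 0.968). After quantile normalization this difference was 0.06, so it had no stable sign.

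RSL4, the bHLH factor whose amount is known to set how long a hair grows, had signals of 5.58 and 5.83 with ASP, against 5.02 and 2.92 without ASP. It was called present on 1 array, replicate 2 with ASP, and absent on the other 3. Both signals with ASP were above both without ASP, a separation that 18.5% of all probe sets showed in that direction. With 1 array above background no fold bound is given. The fitted log2 fold change of 1.73 had a 95% interval of -0.76 to 4.23 and did not pass (limma adjusted p 0.759, and 0.545 with the intensity trend). With replicate 2 of the group without ASP left out, the array with the lowest signal, it was 0.68, and with linear signals under 50 set to 50 it was 0.09.

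The growth genes were all present on all 4 arrays, and 4 of the 6 had a lower mean with ASP, where 52.5% of all probe sets did. Their log2 fold changes ran from -0.41 to 0.16 with a median of -0.16, beside a median of -0.02 over all probe sets. EXPA18 and EXPA7 encode expansins, proteins that loosen the wall of the growing hair. EXPA18 had signals of 7.61 and 7.62 with ASP, against 8.30 and 7.75 without ASP. Both arrays with ASP were below both without ASP, as for 20.9% of all probe sets. The mean was 7.62 ± 0.01 with ASP and 8.03 ± 0.39 without ASP (SD, n = 2 each). The log2 fold change was -0.41 with a standard error of 0.25 (95% interval -1.16 to 0.35, limma adjusted p 0.802), and it was -0.13 when replicate 1 of the group without ASP was left out. EXPA7 had 6.60 and 6.88 with ASP, against 7.03 and 6.69 without ASP. Its groups overlapped, and the log2 fold change was -0.13 (95% interval -0.78 to 0.53).

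COBL9, listed in RefSeq as SHV2, encodes a cell-surface protein of the COBRA family that is needed for hair tip growth. It had signals of 7.10 and 7.33 with ASP, against 7.92 and 7.15 without ASP, where replicate 1 stood above the other 3 arrays. The log2 fold change was -0.32 (95% interval -1.34 to 0.69, limma adjusted p 0.860), and without that array it was 0.06. PRP3, a proline-rich structural protein of the hair wall, had 9.31 and 9.40 with ASP, against 9.95 and 9.16 without ASP. The arrays with ASP lay close together and between those without ASP. The log2 fold change of -0.20 (95% interval -1.22 to 0.82) became 0.20 when replicate 1 of the group without ASP was left out.

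RHD2 encodes the NADPH oxidase that makes reactive oxygen at the hair tip. Its signals were 7.44 and 7.02 with ASP, against 7.49 and 6.64 without ASP. The groups overlapped, and the log2 fold change was 0.16 (95% interval -1.01 to 1.33, limma adjusted p 0.942). LRX1, a wall protein that joins a leucine-rich repeat to an extensin domain, had 6.67 and 5.78 with ASP, against 6.32 and 5.97 without ASP. The arrays with ASP enclosed those without ASP, with a log2 fold change of 0.08 (95% interval -1.10 to 1.26, limma adjusted p 0.974). As multiples of the level without ASP, the 95% intervals ran from 0.447 to 1.27 for EXPA18, from 0.396 to 1.62 for COBL9 and from 0.497 to 2.52 for RHD2. With 2 arrays a group, changes inside these intervals remain compatible with the data for each gene.

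**Figure D2:**
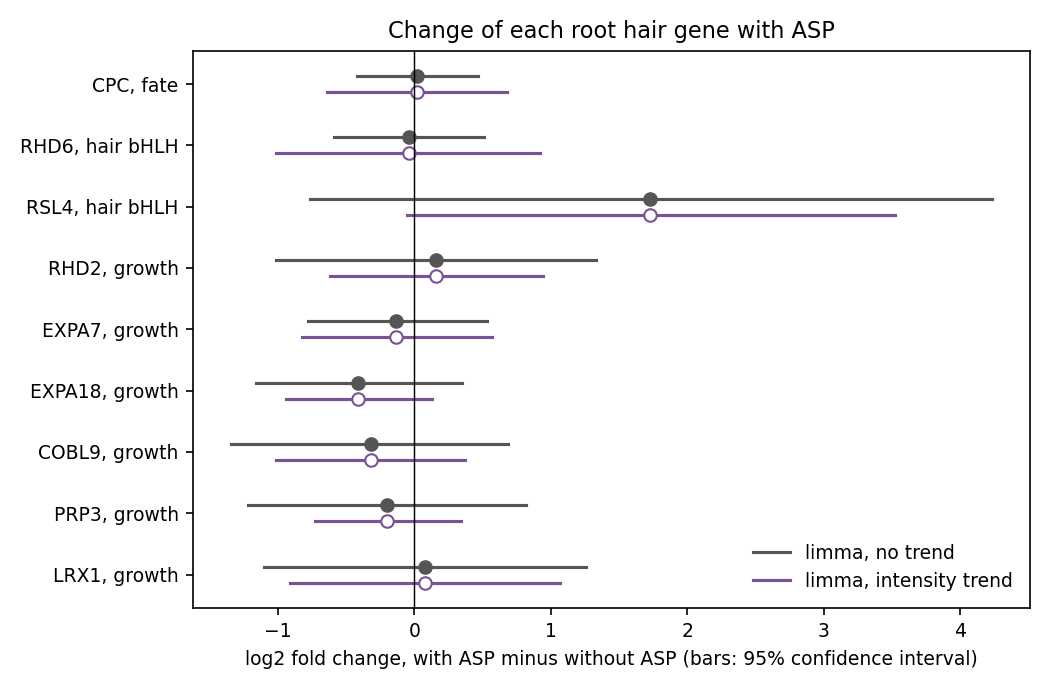
Log2 fold change, with ASP minus without ASP, of 9 root hair genes, with 95% confidence intervals from limma without a trend (filled points) and with the intensity trend (open points). Every interval includes 0, and that of RSL4 is the widest, from -0.76 to 4.23 without the trend. GL2, absent on all 4 arrays, is not drawn.

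Set against CPC, the one fate regulator with a measured level, the growth genes differed by less than the spread between arrays. With each gene taken relative to its own mean over the 4 arrays, the 6 growth genes averaged -0.01 and -0.13 with ASP, against 0.37 and -0.24 without ASP. CPC was at 0.05 and -0.03 with ASP, against 0.06 and -0.09 without ASP. With ASP minus without ASP, the growth genes differed by -0.14 on average and CPC by 0.02. The mean change of the growth genes minus that of CPC was -0.16, where the spread of this contrast between arrays of a group was 0.23 (SD). With each array left out in turn it ran from -0.39, without replicate 2 of the group without ASP, to 0.07, without replicate 1 of that group. With the background signal of GL2 averaged in beside CPC, as the comparison was laid out, it was 0.13. No p is given for these scores, since the genes were chosen as a list.

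In the growth genes the arrays without ASP differed from each other more than the groups did. In all 6 the difference between the 2 arrays without ASP was larger in size than that between the group means, which held for 54.9% of all probe sets. Replicate 1 was above replicate 2 in 2 of the 6 growth genes with ASP, against 6 of the 6 without ASP, where it was so for 53.6% and 48.6% of all probe sets. The median difference was -0.05 in growth genes with ASP, and 0.66 in those without ASP. The smallest of the 6 differences without ASP was 0.34, a value that 9.92% of the 14261 probe sets present on all 4 arrays reached. CPC and RHD6 differed by 0.15 and 0.29 between the same arrays. Leaving out replicate 1 without ASP turned EXPA7, COBL9 and PRP3 to log2 fold changes of 0.05, 0.06 and 0.20, and the median of the 6 growth genes to 0.13.

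**Figure D3:**
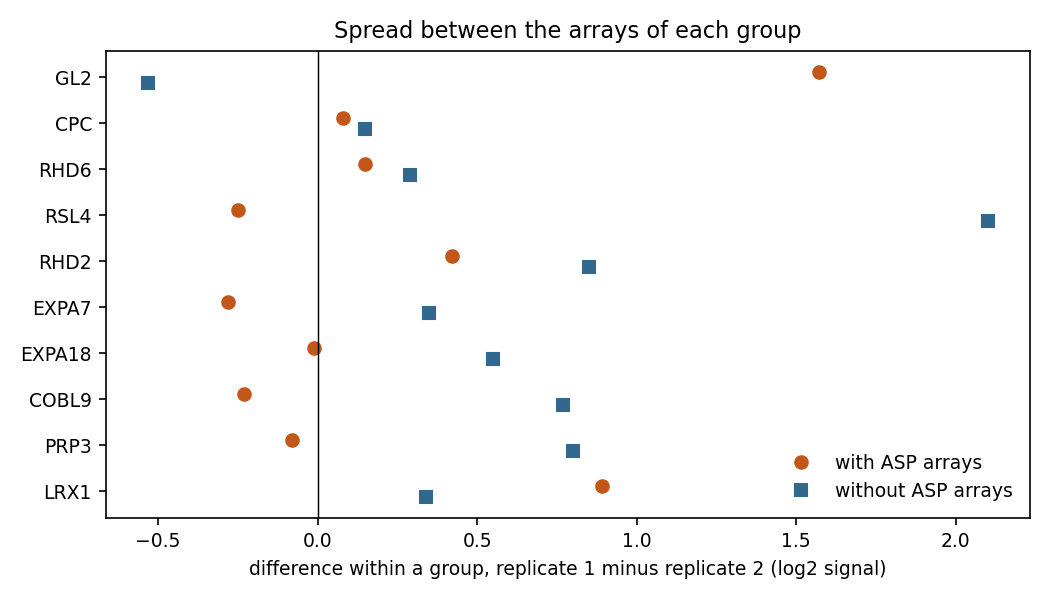
Difference between the arrays of a group, replicate 1 minus replicate 2, for each root hair gene in log2 signal, with circles for the arrays with ASP and squares for those without ASP. All 6 growth genes lie between 0.34 and 0.85 without ASP, and between -0.28 and 0.89 with ASP. GL2 and RSL4, called absent on at least 3 arrays, have the largest differences, of 1.57 with ASP for GL2 and 2.10 without ASP for RSL4.

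Markers of other tissues were read beside this pattern. The summed linear signal of the 3 endodermis markers, SCR, CASP1 and MYB36, was 1530 and 1380 with ASP, against 2220 and 1660 without ASP, and its high value on replicate 1 without ASP came from CASP1 alone. CASP1 had log2 signals of 8.98 and 8.92 with ASP, against 10.26 and 9.38 without ASP, while SCR and MYB36 were highest on replicate 1 with ASP. That of the mesophyll markers RCA and CA1, 2 of 4 listed, was 30800 and 27200 with ASP, against 24000 and 21600 without ASP. The 3 stele markers summed to 1400 and 1510 with ASP, against 1480 and 1510 without ASP. The 3 trichome markers GL1, MYB106 and SIM summed to 1260 and 1270 with ASP, against 1240 and 939 without ASP, a sum made mostly of SIM. GL1 and MYB106 were called present on 2 arrays each. PYK10 and the cortex marker CO2 together gave 16500 and 16200 with ASP, against 17100 and 12900 without ASP, a sum made almost wholly of PYK10. CO2 had log2 signals of 7.92 and 9.16 with ASP, against 9.14 and 9.80 without ASP, a log2 fold change of -0.93 (limma adjusted p 0.799, and 0.484 with the trend). Of the 3 root cap markers, whose sums were 162 and 91.8 with ASP, against 77.3 and 95.5 without ASP, BRN1 and BRN2 were absent on all 4 arrays. The part of tissue makeup in the values of the hair genes was not tested.

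Another 61 genes of the root hair pathway, listed by role, showed the same absence of calls. Of these, 55 had a probe set of their own and 42 were present on at least 2 arrays. Limma called 0 of the 55 over all probe sets, with or without the trend. An unadjusted limma p under 0.05 was found for 3 without the trend (7.42% of all probe sets) and 5 with it (9.47% of all probe sets). Among the 42 present on at least 2 arrays these counts were 1 and 4. RSL3 and GEF4, which make up the difference, were absent on all 4 arrays. Among the 55, the groups did not overlap for 25 genes, 9 higher and 16 lower with ASP, where 39.4% of all probe sets did not overlap.

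Of the genes that set the pattern of hair and hairless cells, 10 of 12 were measured. With ASP 9 were lower and 1 higher, where 52.5% of all probe sets were lower. The median log2 fold change of the 10 was -0.09. TRY and ETC1, both among the lower genes, were present on 1 array each. Among the 8 present on at least 2 arrays, 7 were lower and 1 higher. MYC1, a bHLH factor related to GL3, had signals of 7.28 and 7.39 with ASP, against 7.42 and 7.85 without ASP, a log2 fold change of -0.30 (95% interval -0.96 to 0.36). WER, listed in RefSeq as MYB66, had 6.62 and 6.42 with ASP, against 6.71 and 6.68 without ASP, and a log2 fold change of -0.18 (95% interval -0.64 to 0.29). TTG1 had 8.54 and 8.56 with ASP, against 8.60 and 8.67 without ASP, and a log2 fold change of -0.09 (95% interval -0.50 to 0.32). In these 3 genes, named for their small p, the arrays with ASP lay below those without ASP, and every interval included 0. They were 3 of the 10 measured, where 20.9% of all probe sets lay wholly below. The receptor-like kinase gene SCM, listed in RefSeq as SUB, which passes positional information to the epidermis, was the one higher gene, with 8.66 and 8.87 with ASP, against 8.49 and 8.68 without ASP. Its log2 fold change was 0.18 (95% interval -0.34 to 0.70), and its other, dimmer probe set overlapped between the groups too.

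Of the other bHLH factors of the hair programme, 3 of 6 were measured. LRL1, of a bHLH group needed for hair growth, was the one present on at least 2 arrays. Its signals were 7.60 and 7.64 with ASP, against 7.80 and 7.34 without ASP, a log2 fold change of 0.05 (95% interval -0.62 to 0.72). RSL3, a relative of RSL4, was absent on all 4 arrays.

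The tip growth machinery, which covers signalling, membrane traffic, ion transport and the cytoskeleton, had 24 of 25 genes measured. With ASP 10 were higher and 14 lower, where 52.5% of all probe sets were lower. The median log2 fold change of the 24 was -0.10. MRH2, a kinesin that acts with the small GTPase ROP2 on microtubules of the hair, had the smallest p of those present on at least 2 arrays. Its signals were 5.45 and 5.32 with ASP, against 4.91 and 4.75 without ASP, and its log2 fold change of 0.55 (95% interval 0.09 to 1.02) had a limma adjusted p of 0.616. With the trend the interval was -0.66 to 1.76 (adjusted p 0.813). SCN1, the inhibitor that confines ROP2 to one growth site, had 10.14 and 10.08 with ASP, against 9.82 and 9.81 without ASP. Its log2 fold change was 0.29 (95% interval -0.11 to 0.70, limma adjusted p 0.752, and 0.446 with the trend). BST1, related to inositol polyphosphate phosphatases, had 5.79 and 6.20 with ASP, against 6.38 and 7.01 without ASP, with a log2 fold change of -0.70 (95% interval -1.66 to 0.26). ROPGEF12 (AT1G79860), whose locus had been entered in the list for the related GEF3, was present on both arrays with ASP (5.57 and 5.17) and absent on both without ASP (3.92 and 4.79). Its log2 fold change was 1.02, with a 95% interval that included 0 (-0.16 to 2.21, limma adjusted p 0.713). With its signals without ASP raised to the lowest present signal of the array where they were below it, the bounded ratio was 2.0. In the authors' deposited table ROPGEF12 had a ratio of 2.16 and an unadjusted p of 0.0318, and it was the 1 gene of the 55 found there. Those 2 values include workbook columns tied to no sample, so they do not rest on the same arrays as the limma fit.

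All 18 hair wall genes were measured, 14 lower and 4 higher with ASP, where 52.5% of all probe sets were lower. The median log2 fold change of the 18 was -0.18, beside -0.02 over all probe sets. Among the 15 present on at least 2 arrays, 12 were lower and 3 higher. With the intensity trend 3 of the 18 had an unadjusted p under 0.05, against 9.47% of all probe sets, and the smallest adjusted p was 0.433. Without the trend 0 of the 18 did. The xyloglucan endotransglucosylase gene XTH14 had signals of 8.53 and 8.50 with ASP, against 9.22 and 8.77 without ASP, a log2 fold change of -0.48 (95% interval -1.14 to 0.17). Its relative XTH13 differed the other way, with 7.19 and 7.11 with ASP, against 6.59 and 6.89 without ASP, and a log2 fold change of 0.41 (95% interval -0.13 to 0.94). The peroxidase gene RHS18 had 6.50 and 6.69 with ASP, against 7.26 and 6.98 without ASP, a log2 fold change of -0.53 (95% interval -1.08 to 0.03, limma adjusted p 0.697). PRPL1, a proline-rich protein listed in RefSeq as MOP10, had 8.53 and 8.42 with ASP, against 9.04 and 8.70 without ASP, a log2 fold change of -0.39 (95% interval -0.97 to 0.18). In most of these genes, as in the growth genes, replicate 1 without ASP was above replicate 2. This held in 16 of 18, with a median difference of 0.43, and for 48.6% of all probe sets. XTH13 went the other way. With ASP, replicate 1 was above replicate 2 in 12 of 18, with a median difference of 0.09, and in 53.6% of all probe sets. With replicate 1 without ASP left out, the list's median was 0.01, and with replicate 2 without ASP left out it was -0.43. Leaving out replicate 1 without ASP gave 0.02 for the tip growth machinery and -0.10 for the patterning genes.

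**Figure D4:**
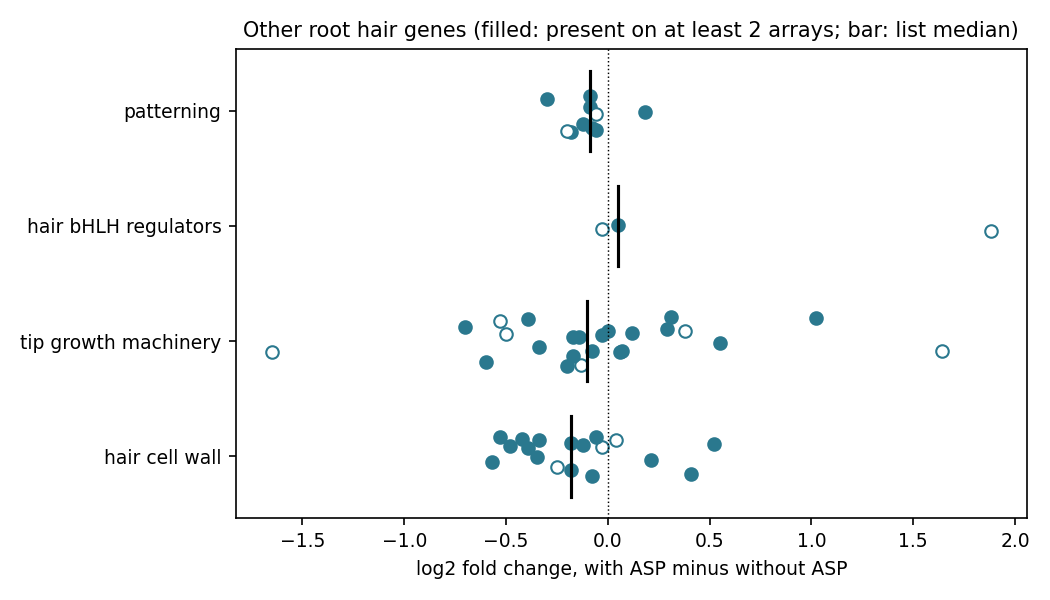
Log2 fold change, with ASP minus without ASP, of other root hair genes by role. Each point is a gene, filled where it was present on at least 2 arrays, and vertical bars are list medians, which run from -0.18 for hair wall genes to 0.05 for bHLH regulators. Of the 4 genes beyond 1 in size, 3 are open points, absent on most arrays.

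The 6 growth genes share an annotation, which goes with the role by which they were classed. All 6, and none of the other 4, carry the gene ontology term root hair elongation in the authors' workbook, which 177 of 15810 annotated genes (1.12%) have. The median growth gene lay at -0.17 and -0.09 with ASP, against 0.41 and -0.22 without ASP, relative to its own mean, a course the 6 themselves form. PRP3 and COBL9 were nearest to that course, at Euclidean distances of 0.130 and 0.177 in log2 signal over the 4 arrays. RHD2 and LRX1 were the farthest of the 6, at 0.552 and 0.778. RHD6 and CPC, at 0.345 and 0.436, lay nearer than these, and GL2 and RSL4, at 1.46 and 2.23, lay farther than all 6. The distance is not scaled to a gene's own spread. A gene that varies little, as CPC did, can therefore lie near without sharing the course, so these distances do not tell growth genes and regulators apart or alike. Among 13533 other genes present on all 4 arrays, the 3 nearest were AT1G67330 (0.0539), RHS13 (0.0748), named for its hair-specific expression, and AT1G20390 (0.0774). RHS13, which is also one of the hair wall genes above, had signals of 9.30 and 9.37 with ASP, against 9.80 and 9.23 without ASP. All 3 had their highest signal on replicate 1 without ASP, which their choice by nearness to the course fixed beforehand. With 4 arrays this likeness only describes these samples.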

How the data were processed

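Per the file headers, the authors deposited a normalized signal for each probe set on the log2 scale, and a detection call beside it. How signals were summarised and normalized is not given in the sources used here. Values in the deposited series matrix were the same (largest difference 5e-09). The authors' deposited table of differing probe sets gives an unadjusted p-value and a ratio (fold) of mean linear signal, per the file headers. Another 4 workbook columns, 2 of signal and 2 of calls, matched no sample of the series and were left out. Their names carry the label of each group with the letter B, where the arrays used have A or C. They may thus stand for a further array of each group, which the sources used here do not state. The deposited p-value and ratio include such columns.

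Arrays were grouped by their titles. The 64 control probe sets were set aside, and the other 22746 were fitted together with limma 3.58.1 (R 4.3.3) (a linear model with an empirical Bayes variance prior and no trend, two-sided tests, Benjamini-Hochberg over all of them, threshold 0.05). The fit had 2 residual and 1.34 prior degrees of freedom. P-values set the difference between groups against the spread within groups, moderated by the prior from all probe sets. The number of arrays, 4, limits the precision. For genes with several probe sets the brightest was used. The fit was tested on simulated independent arrays, in which only probe sets brighter than the median were moved. That test does not show how well changes in dim genes are recovered, and no result here rests on it. For ROPGEF12, absent on both arrays of 1 group only, the bounded ratio compares the brighter group's mean with a level on each dim array. That level was the gene's own signal or that array's lowest present signal, whichever was larger, so it is not a detection limit.

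The members and lists were chosen with earlier results of these data known. All 10 members are named, with the 4 genes of smallest p present on at least 2 arrays from each list and the 3 genes nearest in profile. RefSeq names are those of TAIR10.1. Alternatives were a replicate block, the trend, a robust prior, a filter on calls, quantile and median scaling, the series matrix, a floor of 50, a plain equal-variance test and leaving out each array; the trend combined with the filter or with an array left out, and the fate regulators without GL2, were added after the data were seen.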

Additional observations from a re-analysis of the deposited data

How the results depend on the processing

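Under the alternatives run, 0 of the members and 0 of the other hair genes tested were called: 10 and 55 genes, or 8 and 42 where probe sets were filtered on presence. Over all probe sets the 0 calls became 72 with the intensity trend, 19 after the filter on presence (at least 2 arrays), 1 with the floor of 50 and 193 with the trend and that filter together. With the trend they became 11 or 9 when replicate 1 or 2 with ASP was left out, and 22 or 37 when replicate 1 or 2 without ASP was left out. Labels share replicate numbers, but deviations of same-numbered arrays correlated at 0 over all probe sets and at -0.024 over those present on all 4 arrays, so the numbers pair nothing visible; with a replicate block 0 members and 0 of all probe sets were called. RHD6 turned to 0.06 after quantile normalization. With each array left out in turn, the log2 fold change ran from -0.05 to 0.10 for CPC, -0.19 to 0.10 for RHD6, -0.26 to 0.59 for RHD2, -0.30 to 0.05 for EXPA7, -0.71 to 0.06 for COBL9, -0.60 to 0.20 for PRP3, -0.37 to 0.52 for LRX1 and -0.18 to 0.28 for LRL1, all of which changed sign. RSL4 (0.68 to 2.79) and EXPA18 (-0.68 to -0.13) did not. The median of the growth genes ran from -0.45 to 0.13. Their mean change minus that of GL2 and CPC ran from -0.27 to 0.53, and was -0.16 under the presence filter, -0.14 with the floor of 50 and 0.40 with RSL4 among the growth genes. With that floor MRH2 and ROPGEF12 had a change of 0, all their signals being under it. Absent calls limit GL2, RSL4 and RSL3.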
